A study of Rattus norvegicus with 16 samples.

Results

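Bile duct epithelium and the progenitor cells that appear beside it in injured liver were followed through 10 marker genes: Krt8, Krt18, Krt7, Krt19, Epcam, Cd24, Prom1, Cldn4, Sox9 and Spp1. The genes were taken by name from a count table of 32623 genes, and each of the 10 had 1 record there. The animals were female rats of the Big Blue strain, transgenic in every group for a vector with the reporter genes cII and lacI, and RNA came from their liver or bone marrow. Rats were received at 6 weeks of age, acclimated for 1 week and then gavaged daily for 28 days with N-nitrosodiethylamine (NDEA), a liver carcinogen, at 10 mg/kg/day or at 0 mg/kg/day, with sacrifice 3 days later. The 4 groups (control liver, NDEA liver, control marrow and NDEA marrow) held 4 libraries each, 16 in all. Each library held the RNA of a whole tissue, so that fewer cells of a type and less RNA per cell cannot be told apart. The labels describe separate rats, without the cage of each rat and without saying whether liver and marrow libraries of one number come from one rat.

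Cholangiocytes, the cells that line bile ducts, are known for the keratin pairs Krt7 with Krt19 and Krt8 with Krt18, whereas hepatocytes carry the second pair alone. Liver injury that limits hepatocyte renewal brings up small duct-like cells, called oval cells in the rat, and reactive ducts; Sox9, Epcam, Cd24, Prom1 and Spp1 are widely used to mark them. Notch and Hippo-YAP signalling are known to act on the choice between hepatocyte and biliary identity.

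Liver libraries held 5630838 to 6772923 counts in controls and 5000844 to 6863592 with NDEA. Marrow libraries held 2162182 to 5539409 and 4394984 to 5705705 counts. Mitochondrial transcripts took 16.2% to 20.6% of counts in control liver and 20.1% to 22.4% in NDEA liver. In marrow they took 6.41% to 13.0% in controls and 8.37% to 15.8% with NDEA. Genes with any counts numbered 10545 to 11322 in control liver and 11032 to 11855 in NDEA liver. Control marrow had 11054 to 11699 such genes and NDEA marrow had fewer, 9101 to 11037, without overlap. Levels are given as CPM, each gene's counts over the library's scaled total, within each tissue; the libraries read the 3' end of transcripts, so a count does not scale with the length of its transcript. A gene was tested if at least 4 libraries reached the CPM that 10 counts make in the median library and if it held at least 15 counts in all. It was called at a limma-voom adjusted p (Benjamini-Hochberg over all genes tested) under 0.05. The filter left 6 members in liver and 4 in marrow, of which 3 were shared.

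The promoter windows of the 2 keratins that carry nearly all the liver signal, and of Epcam, the duct marker with the smallest adjusted p among the rest, are shown because the liver results turn on these 3 genes. Each window is RefSeq sequence of assembly GRCr8, from 250 to 81 bases before the annotated start, 5′ to 3′ on the gene's strand, and 6 of the 10 members had an entry. Capitals mark matches, on either strand, to TATAAA (the TATA box), GGGCGG (the GC box) or TGANTCA (the AP-1 motif).
Krt8 (chr7:135010420-135010589, minus strand): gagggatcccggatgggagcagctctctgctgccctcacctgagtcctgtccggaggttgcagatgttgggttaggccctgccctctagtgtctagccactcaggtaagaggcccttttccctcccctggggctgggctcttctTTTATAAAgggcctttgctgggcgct
Krt18 (chr7:135035918-135036087, plus strand): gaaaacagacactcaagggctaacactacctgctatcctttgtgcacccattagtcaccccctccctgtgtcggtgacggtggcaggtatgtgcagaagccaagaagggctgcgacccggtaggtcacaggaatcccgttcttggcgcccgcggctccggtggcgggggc
Epcam (chr6:12649759-12649928, minus strand): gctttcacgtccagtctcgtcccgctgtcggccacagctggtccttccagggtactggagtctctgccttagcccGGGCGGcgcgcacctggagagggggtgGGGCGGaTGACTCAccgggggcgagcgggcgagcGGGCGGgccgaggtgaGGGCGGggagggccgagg
The Krt8 window held 2 overlapping TATAAA matches, one on each strand, a motif found in 8.55% of the 33469 promoter windows of the same length. The Epcam window held 4 GGGCGG matches (a motif of 19.4% of windows) and 1 TGANTCA match (4.38% of windows), and its GC content was 73.5%. The Krt18 window held none of these letters, and its GC content of 61.2% was close to the 60.0% of Krt8; the median window had 50.6%. Searches of the 3 windows for GGAATG (TEAD, the DNA partner of YAP), TGGGAA (RBPJ, the DNA-binding partner of Notch) and AACAAT (SOX factors) gave 0 matches; these are in 8.30%, 16.0% and 7.49% of all windows. These are matches of letters and not measured binding sites, and bases closer to the start than 81 were not searched for any motif, TATAAA included.

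In the liver the members made a steep range of levels, and most of the signal came from genes that hepatocytes share. Krt8 and Krt18 together took 93.6% to 95.5% of the summed CPM of the 10 members in control liver and 89.6% to 93.2% in NDEA liver. The other 8 members summed to 18.4 to 24.2 CPM in the 4 control livers and 34.2 to 56.5 CPM in the 4 NDEA livers, without overlap. Of single genes tested in liver, 6.54% had all NDEA livers above all controls, and no such share was computed for sums. Epcam was the largest part by mean (7.88 CPM in controls, 18.7 with NDEA), while Prom1 was lower with NDEA (6.35 and 3.06 CPM). Among the markers that set ducts apart from hepatocytes, Krt19 and Spp1 had 0 counts in every control liver and Krt7 had counts in 1 of 4. The duct and progenitor label thus rests on low counts of Epcam, Cd24, Prom1 and Sox9 in control liver, and the summed level of the 10 genes follows Krt8 and Krt18.

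With NDEA, 1 of the 6 members tested in liver was called: Krt8, 1.41-fold higher. Over all 9668 genes tested in liver, 2.87% were called higher and 3.74% lower, 6.61% in all. Among the 6, 4 had an unadjusted p under 0.05 by limma-voom, against 18.7% of all genes, and 5 of 6 estimates were above 0, against 51.1% of all genes. The median log2 fold change of the 6 was 0.87, where that of all genes tested was 0.01. The 4 untested members (Krt7, Krt19, Cldn4 and Spp1) were too low for the filter, so these counts describe the 6 and not the list. Cd24 and Sox9 passed the filter only through the NDEA livers. Cd24 had 7 counts in controls 2 and 3, and Sox9 had 7 in control 1 and 0 in control 4. Both enter the 4 low p values and the 5 estimates above 0. Those counts and the median are therefore not read as a result. All 4 NDEA livers stood above all 4 control livers for 2 members, Epcam and Sox9; the same held for 6.54% of all genes tested.

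**Figure D1:**
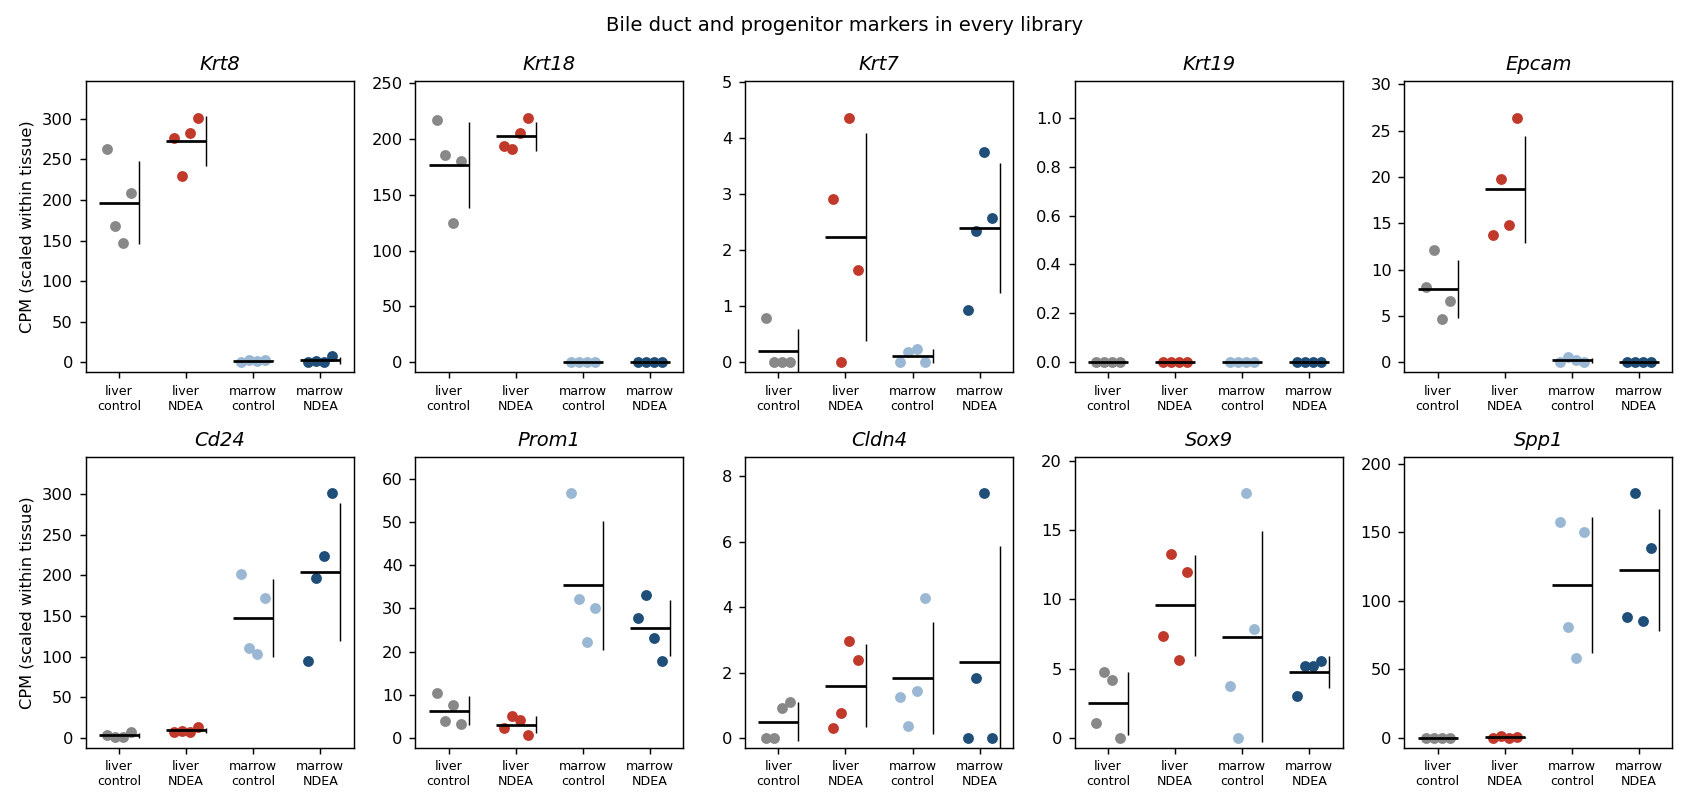
Level of each of the 10 markers in every library, in CPM scaled within each tissue, on linear axes that differ between panels. Points are libraries, horizontal bars are group means and vertical lines are the mean ± SD (n = 4). Epcam and Sox9 show NDEA livers above all control livers, Cd24, Prom1 and Spp1 are higher in marrow than in liver, and Krt19 is at 0 throughout.

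Krt8, the type II keratin of simple epithelia (ENSRNOG00000009779, chromosome 7, position 143596511 of the deposited table, on an unnamed build), stood at 263, 168, 147 and 208 CPM in control livers 1 to 4 and at 277, 229, 283 and 301 CPM in NDEA livers 1 to 4. Controls 2, 3 and 4 lay below every NDEA liver, and control 1 lay above NDEA 2. Group means were 197 ± 51.2 CPM and 272 ± 30.8 CPM (SD, n = 4 each), a log2 fold change of 0.50 (SE 0.15, 95% interval 0.19 to 0.81, limma-voom adjusted p = 0.0486). The call sat at the edge of the threshold: it ended without control 2, 3 or 4 or NDEA 1, 3 or 4 (adjusted p from 0.0732 to 0.221), with no filter on low counts (0.0707), with limma-trend (0.0661) and in a fit of all 16 libraries (0.212). The estimate stayed between 0.37 and 0.66 throughout.

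Krt18, the type I keratin that forms filaments with Krt8 (ENSRNOG00000047393, chromosome 7, position 143629455), stood at 217, 185, 124 and 180 CPM in control livers and at 194, 191, 205 and 219 CPM in NDEA livers. The groups overlapped, with control 1 above 3 of the 4 NDEA livers. The log2 fold change was 0.22 (SE 0.15, 95% interval -0.08 to 0.52, limma-voom adjusted p = 0.458), an interval that includes the estimate of Krt8. Krt8 counts per Krt18 count were 1.11 ± 0.14 in control livers (range 0.907 to 1.21) and 1.34 ± 0.099 in NDEA livers (range 1.2 to 1.43; SD, n = 4 each), ranges that overlap at their edge. This ratio does not depend on how libraries are scaled. A two-sided exact permutation test of its difference of 0.23, added after the values were seen, gave p = 0.0571, where 4 libraries against 4 can reach 0.0286 at the lowest.

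**Figure D2:**
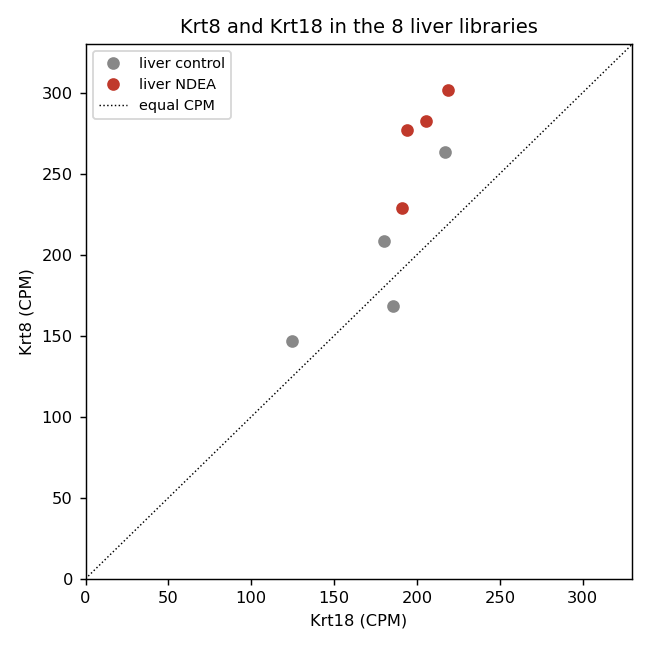
Krt8 against Krt18 in the 8 liver libraries, both in CPM on linear axes from 0, with the dotted line of equal CPM; grey points are controls and red points NDEA. The 4 NDEA livers lie at 229 CPM of Krt8 or more, between 191 and 219 CPM of Krt18, and control 2 is the library below the line.

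Krt7, the type II keratin of duct epithelium (ENSRNOG00000008057, chromosome 7, position 143059764), had 5, 0, 0 and 0 counts in control livers and 19, 0, 31 and 11 counts in NDEA livers. NDEA 1, 3 and 4 were higher than every control, and NDEA 2 had none. The 61 counts with NDEA against 5 in controls gave a ratio of 11.0 after scaling (exact 95% interval 4.47 to 35.1, which covers counting error only). Without a filter the log2 fold change was 3.08 (SE 1.23, limma-voom adjusted p = 0.192).

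Krt19, the type I partner of Krt7 and the usual marker of cholangiocytes (ENSRNOG00000014233, chromosome 10, position 88055841), had 0 counts in all 16 libraries. A count of 0 allows up to 0.422 to 0.570 CPM in a liver library and 0.503 to 1.26 CPM in a marrow library (3 counts, for counting error only). Other genes with a known place in these tissues were also at 0 in all 16 libraries, among them Gata1, the transcription factor of red cell precursors, and Col1a2, whose partner collagen chain Col1a1 held 60568 counts in control marrow. These 2 genes were named after their values were seen. A 0 in this table is therefore given as listed and is not read as absence of the transcript; how it arose was not tested.

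Epcam, an adhesion molecule of epithelial cells that adult hepatocytes lack (ENSRNOG00000015667, chromosome 6, position 11281964), stood at 8.12, 12.1, 4.69 and 6.64 CPM in control livers and at 13.8, 19.7, 14.8 and 26.4 CPM in NDEA livers. Every NDEA liver was above every control liver, the closest being NDEA 1 and control 2. Means were 7.88 ± 3.13 and 18.7 ± 5.77 CPM (SD, n = 4 each), a 2.37-fold estimate (log2 fold change 1.25, SE 0.41, 95% interval 0.40 to 2.10) that did not pass the threshold (limma-voom adjusted p = 0.0731). These levels rest on 26 to 69 counts in a control library and 90 to 176 counts in an NDEA library.

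Cd24, a small glycoprotein on the surface of progenitor cells and of immature blood cells (ENSRNOG00000000321, chromosome 20, position 48335540), stood at 3.75, 1.23, 1.26 and 7.37 CPM in control livers and at 7.64, 8.92, 7.31 and 12.9 CPM in NDEA livers. The groups met at control 4, which was just above NDEA 3. The log2 fold change of 1.75 (SE 0.70, 95% interval 0.30 to 3.20) did not pass (limma-voom adjusted p = 0.164).

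Prom1, which encodes the membrane protein CD133 (ENSRNOG00000003098, chromosome 14, position 71533063), was the one tested member with an estimate below 0. It stood at 10.5, 4.03, 7.57 and 3.32 CPM in control livers and at 2.29, 5.13, 4.08 and 0.749 CPM in NDEA livers. NDEA 2 and 3 lay within the range of the controls. The log2 fold change was -1.27 (SE 0.76, 95% interval -2.85 to 0.30, limma-voom adjusted p = 0.394).

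Cldn4, a tight junction protein of ducts (ENSRNOG00000001476, chromosome 12, position 24761210), had 0, 0, 5 and 6 counts in control livers and 2, 4, 21 and 16 counts in NDEA livers. NDEA 3 and 4 were higher than every control, and NDEA 1 and 2 were not. The ratio of 43 to 11 counts was 3.53 after scaling (exact 95% interval 1.79 to 7.58, counting error only), and without a filter limma-voom gave an adjusted p = 0.435.

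Sox9, the transcription factor of biliary identity (ENSRNOG00000002607, chromosome 10, position 101288489), stood at 1.09, 4.73, 4.15 and 0 CPM in control livers and at 7.34, 13.3, 5.63 and 12.0 CPM in NDEA livers. The lowest NDEA liver was above the highest control. The means were 2.49 ± 2.30 and 9.56 ± 3.66 CPM (SD, n = 4 each). The log2 fold change of 2.83 (SE 1.09, 95% interval 0.57 to 5.08) had a limma-voom adjusted p of 0.144; with a prior of 0.5 counts it leans on control 4, which had 0 counts, and without that library it was 1.67.

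Spp1, the secreted matrix protein osteopontin (ENSRNOG00000043451, chromosome 14, position 6673686), had 0 counts in the 4 control livers and 0, 6, 0 and 3 counts in NDEA livers. NDEA 2 and 4 were thus the livers with any counts, 9 in all, and no fold change is given.

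**Figure D3:**
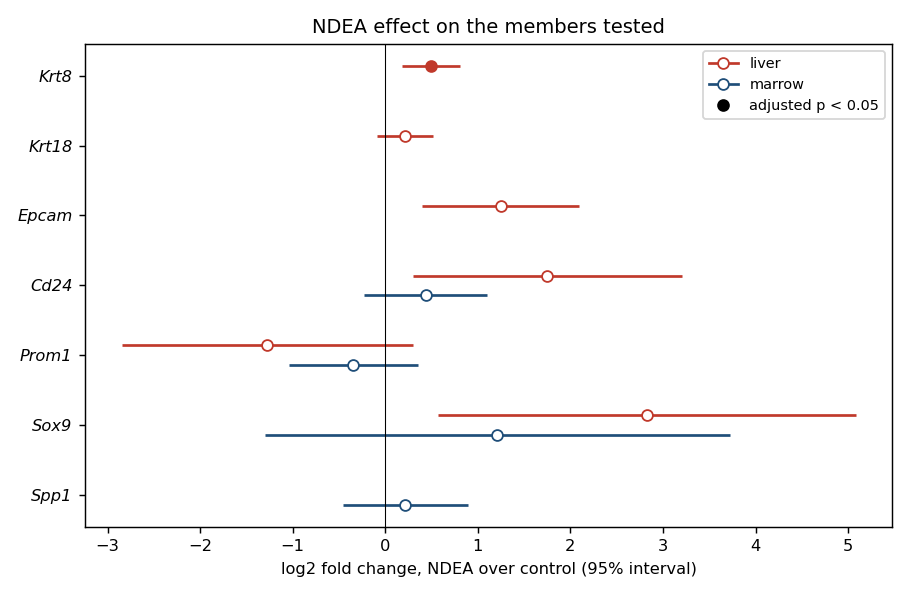
Log2 fold change of NDEA over control for each member tested in liver (red, 6 genes) or marrow (blue, 4 genes), with 95% intervals from the limma-voom fits; a filled point has an adjusted p under 0.05. Krt8 in liver is the one filled point, and the intervals of Epcam, Cd24 and Sox9 in liver also lie above 0 before adjustment over all genes.

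Across the 8 liver libraries Krt8 and Krt18 varied together (Pearson r = 0.849 on log2 CPM, and 0.837 after removing group means). Epcam and Sox9, the 2 members whose groups did not overlap, had r = 0.646 over the 8 libraries and 0.242 within groups. Sox9 and Cd24 had r = 0.064 over the 8 and -0.855 within groups. Liver control 4 had 0 counts of Sox9, so its log2 value for that gene was set by the prior. The same library had the highest Cd24 of the control livers (7.37 CPM). How far the correlations of Sox9 lean on this library was not tested. All these correlations are descriptions over 8 libraries that share the treatment difference. The gene most like Krt8 among 7834 genes with a mean of at least 2 log2 CPM was Wfdc21 (r = 0.948 over 8 libraries), itself called higher (log2 fold change 1.10, limma-voom adjusted p = 8.8e-04), followed by Card19 (r = 0.931) and Wrb (r = 0.927). By the same measure the closest genes to Sox9 were Tpx2 (r = 0.981), Plk1 (r = 0.979) and Rgs19 (r = 0.976). Of these, Tpx2 and Plk1 are genes of the mitotic spindle. Those closest to Epcam were Slc35b1 (r = 0.976), Marveld1 (r = 0.973) and Nrg1 (r = 0.964). Such values are the highest of 7834 and are given as likeness alone. Those of Sox9 also include liver control 4, its library at 0 counts.

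Other biliary genes gave no rise that passed the test. Of 29 matched genes of bile duct epithelium beside the members, 17 were tested in liver; limma-voom called 0 higher and 2 lower, with 4 higher and 4 lower at an unadjusted p under 0.05, 12 estimates above 0 and a median log2 fold change of 0.58. Limma-trend called 1 higher, Ggt1, which encodes gamma-glutamyl transferase (adjusted p = 0.0166, against a limma-voom adjusted p of 0.0959). Ggt1 was named after its values were seen. It stood at 1.28 ± 0.880 CPM in control livers and 14.0 ± 9.37 CPM in those given NDEA (SD, n = 4 each). Which liver cells these Ggt1 counts came from was not tested. The 2 that fell were Onecut1, a transcription factor of biliary and hepatocyte development, with 326 ± 102 CPM in controls and 160 ± 51.2 CPM after NDEA (SD, n = 4 each; log2 fold change -1.04, limma-voom adjusted p = 0.00378), and Cdh1, E-cadherin, with 285 ± 59.1 and 182 ± 12.1 CPM (log2 fold change -0.63, limma-voom adjusted p = 0.00689). Hepatocytes express both of these genes as well. Slc10a2, Gpbar1, Mmp7, Vtcn1 and Cdh6 had 0 counts in all liver libraries.

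Of 14 matched genes of progenitor and oval cells beside the members, 8 were tested; limma-voom called 0 higher and 1 lower, with 3 higher and 2 lower at an unadjusted p under 0.05 and a median log2 fold change of -0.08. The gene that fell was Igf2bp3, an RNA-binding protein of fetal tissue (log2 fold change -0.93, limma-voom adjusted p = 0.0313). Afp, the fetal serum protein that oval cells re-express, averaged 12.7 ± 2.62 CPM in controls and 28.4 ± 11.1 CPM after NDEA (SD, n = 4 each; log2 fold change 1.06, limma-voom adjusted p = 0.0600), and it was called by limma-trend (adjusted p = 0.0383). Limma-trend called 2 higher, Afp and Cd44, and 1 lower. For the NDEA effect in liver minus that in marrow, 9 of these genes were tested and limma-voom called 2 higher. They were Cd44 (log2 difference 4.76, limma-voom adjusted p = 0.0113) and Ncam1 (4.49, limma-voom adjusted p = 0.0350), with 22 and 27 counts over the control livers. Limma-trend called 0 there, and limma-voom called 2.28% of all 11261 genes. Dlk1, Lgr5, Thy1 and Foxl1 had 0 counts in liver.

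The signalling pathways tied to biliary identity gave 0 calls in liver by limma-voom and 0 by limma-trend. In the Notch pathway 10 genes were tested, 1 with an unadjusted p under 0.05, with a median log2 fold change of 0.26. Hes1, a Notch target, averaged 48.3 ± 7.91 CPM in controls and 83.9 ± 38.9 CPM after NDEA (SD, n = 4 each; limma-voom adjusted p = 0.149), and Rbpj had an estimate of -1.06 (limma-voom adjusted p = 0.273). Among Hippo-YAP genes 14 were tested, 2 with an unadjusted p under 0.05, with a median of 0.14; the YAP target Ccn2 had an estimate of 0.78 (limma-voom adjusted p = 0.127) and Wwtr1, which encodes TAZ, 2.39 (limma-voom adjusted p = 0.207). Among receptors of osteopontin, the protein of Spp1, 5 were tested; limma-voom called 0, with 4 at an unadjusted p under 0.05, and limma-trend called 1, Cd44. Cd44, also counted among the progenitor genes, averaged 0.887 ± 1.33 CPM in controls and 10.2 ± 3.55 CPM after NDEA (SD, n = 4 each; limma-voom adjusted p = 0.0611, limma-trend adjusted p = 0.0142), and Itgb1 had an estimate of 0.39 (limma-voom adjusted p = 0.0818).

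Genes that work with the member keratins and claudins gave calls of their own. Of 9 tested genes of other keratins, filaments and desmosomes, 2 rose in liver and 0 fell, with 4 higher and 1 lower at an unadjusted p under 0.05. Vim, the intermediate filament of mesenchymal cells, rose 2.58-fold (limma-voom adjusted p = 5.07e-04), and Dsp, the desmosome protein that anchors keratin filaments, rose 1.51-fold (limma-voom adjusted p = 0.0270). Of 13 tested genes of other claudins and tight junctions, 0 rose and 2 fell, with 2 higher and 2 lower at an unadjusted p under 0.05. They were Cldn2, at 87.6 ± 10.3 CPM in controls and 43.9 ± 4.94 CPM after NDEA (SD, n = 4 each; limma-voom adjusted p = 7.26e-04), and Cldn14 (log2 fold change -1.10, limma-voom adjusted p = 0.0396).

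**Figure D4:**
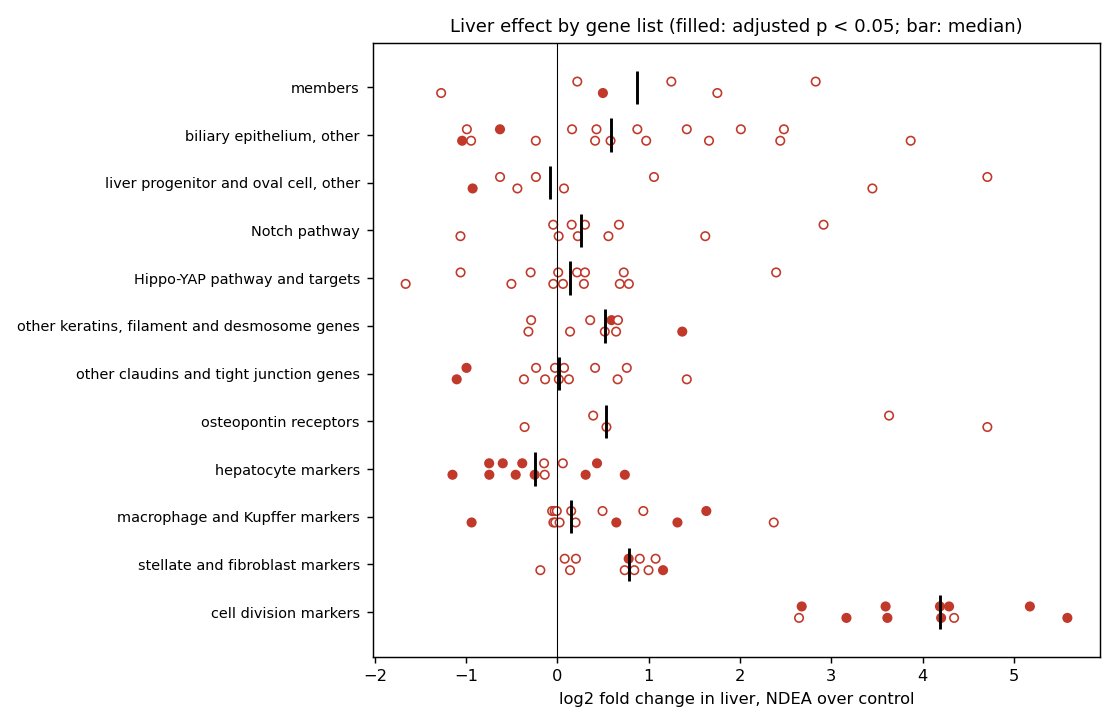
Log2 fold change in liver of every tested gene of the members and of 11 other lists; each point is a gene, filled where the adjusted p was under 0.05, and the black bar is the median of the list. Members and other biliary genes spread to both sides of 0 with few filled points, while the cell division genes lie above 2.

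Markers of other cell types moved in the same livers. Of 11 tested genes of cell division, 9 rose and 0 fell (median log2 fold change 4.19); Mki67, a marker of cycling cells, rose 8.96-fold. Of 15 tested macrophage genes 3 rose (Lgals3, Gpnmb and Marco) and 1 fell (Vsig4), of 11 tested stellate and fibroblast genes 2 rose (Col3a1 and Dcn) and 0 fell, of 13 tested hepatocyte genes 3 rose and 7 fell (2 and 6 by limma-trend), and of 8 tested endothelial genes limma-voom and limma-trend called 0, with 1 at an unadjusted p under 0.05. Markers of exocrine pancreas, an organ whose duct cells also express several of the members, summed to 216 to 395 CPM in control livers and 17.1 to 78.5 CPM in NDEA livers, with 10 of 17, Prss1, Amy2a3 and Pnlip among them, at 0 in liver. Cpa1, a carboxypeptidase, fell (log2 fold change -4.16, limma-voom adjusted p = 1.49e-06). Mesothelium markers, from the keratin-rich lining of the liver surface, summed to 0 to 8.74 CPM in control and 7.03 to 16.0 CPM in NDEA livers, with Upk3b, Lrrn4 and Bnc1 at 0 and Msln at an estimate of 2.68 (limma-voom adjusted p = 0.176). Of 10 gut markers 1 was tested; they summed to 1.08 to 4.79 CPM in control and 5.32 to 9.99 CPM in NDEA livers. The part of these cells in the values of Krt8, Epcam, Cd24 and Sox9 was not tested.

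The marrow gave a contrast in which the members took other ranks. In untreated animals 3 of the 9 members tested were higher in liver and 3 were higher in marrow; over all 11261 genes of that fit, 29.4% were called higher in liver and 31.6% higher in marrow. Krt18 had 4117 counts in the 4 control livers and 0 in the 4 control marrows. That is a ratio of 1239 against a limit of 3 counts over the marrow group, for counting error only. Its fitted log2 difference was 10.7 (95% interval 9.18 to 12.3), which leans on the prior of 0.5 counts. Krt8 was higher in liver by 6.87 on the log2 scale (95% interval 5.18 to 8.55, limma-voom adjusted p = 1.55e-07) and Epcam by 5.13 (3.44 to 6.81, adjusted p = 9.65e-06). By contrast Spp1 had 1916 counts in control marrow and 0 in control liver. That is a ratio of 707 in favour of marrow, against 3 counts over the liver group and for counting error only. Its fitted log2 difference was -9.95 (95% interval -12.3 to -7.59), which also leans on the prior. Cd24 was lower in liver, with a log2 difference of -5.46 (95% interval -7.21 to -3.72, limma-voom adjusted p = 6.87e-06), as was Prom1, with -2.18 (-3.23 to -1.13, adjusted p = 7.2e-04). Cldn4 (-2.06, adjusted p = 0.190), Sox9 (-0.74, adjusted p = 0.656) and Krt7 (-0.15, adjusted p = 0.926) did not differ beyond their spread by limma-voom. The call of Sox9 in marrow's favour appeared without marrow control 2, its library at 0 (adjusted p = 0.0268), and its sign turned without liver control 4 (0.53) or marrow control 3 (0.18).

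In marrow 0 of the 4 members tested were called after NDEA, 0 had an unadjusted p under 0.05 by limma-voom, and limma-trend also called 0. Of all 9239 genes tested in marrow 0.0% were called, while 1336 genes had an unadjusted p under 0.05; limma-trend called 0 genes too. Without marrow control 3 limma-voom called 318 genes, with 0 members among them. Cd24 stood at 202, 111, 103 and 172 CPM in control marrow and at 94.6, 196, 224 and 301 CPM in NDEA marrow. NDEA 1 was the lowest of the 8 and NDEA 4 the highest, and the log2 fold change was 0.44 (SE 0.32, 95% interval -0.23 to 1.10, limma-voom adjusted p = 0.508). B lineage genes, a marrow source of Cd24, summed to 312 to 463 CPM in control and 321 to 468 CPM in NDEA marrow.

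Spp1, which osteoblasts, osteoclasts and macrophages make, stood at 157, 80.9, 58.5 and 150 CPM in control marrow and at 88.1, 178, 85.0 and 139 CPM in NDEA marrow. The groups overlapped (log2 fold change 0.21, 95% interval -0.46 to 0.89, limma-voom adjusted p = 0.778). Osteoblast and osteoclast genes summed to 3448 to 8402 CPM in control and 2101 to 4242 CPM in NDEA marrow; their part in Spp1 was not tested. Prom1, also a marker of blood stem cells, stood at 56.6, 32.3, 22.2 and 30.0 CPM in control and 27.8, 33.0, 23.1 and 17.8 CPM in NDEA marrow (log2 fold change -0.34, 95% interval -1.04 to 0.35, limma-voom adjusted p = 0.628).

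Sox9 in marrow stood at 3.77, 0, 17.6 and 7.86 CPM in controls and at 3.01, 5.2, 5.2 and 5.54 CPM with NDEA. The 4 controls spread over more than the NDEA libraries, which lay inside their range. The mean was lower with NDEA (7.32 ± 7.60 against 4.74 ± 1.16 CPM, SD, n = 4 each) although the fitted log2 fold change was 1.21 (SE 1.20, 95% interval -1.31 to 3.73, limma-voom adjusted p = 0.638). Without control 2, the library at 0, the estimate turned to -0.95.

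The duct keratin Krt7 was the member whose marrow groups did not overlap. It had 0, 1, 1 and 0 counts in control marrow and 4, 14, 18 and 13 counts in NDEA marrow. All 4 NDEA libraries were above all 4 controls, as for 2.57% of the genes tested in marrow, and the ratio of 49 to 2 counts was 21.6 after scaling (exact 95% interval 5.68 to 184, counting error only). Krt7 was too low for the filter, so it is not among those tested genes. The share among genes with as few counts was not computed. Without a filter its log2 fold change of 3.45 had a limma-voom adjusted p of 0.167. Mesothelium markers had 0 counts in marrow in both groups.

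The remaining members were near the limit of detection in marrow. Krt8 had 2, 17, 6 and 13 counts in control marrow and 0, 6, 0 and 40 counts with NDEA. Cldn4 had 3, 2, 6 and 24 counts in controls and 0, 11, 36 and 0 with NDEA. Epcam had 4 counts over the 4 controls and 0 with NDEA, and Krt18 had 0 in all 8 libraries. None of these 4 supports a direction in marrow.

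The difference of the NDEA effect between liver and marrow was tested for 9 members, and 0 were called by limma-voom, against 2.28% of 11261 genes. One member, Epcam, had an unadjusted p under 0.05, and limma-trend also called 0 members. The difference (liver minus marrow, log2) was 2.64 for Epcam (95% interval 0.32 to 4.96, limma-voom adjusted p = 0.229), 2.27 for Krt8 (-0.27 to 4.8, adjusted p = 0.351) and 1.90 for Sox9 (-1.49 to 5.28, adjusted p = 0.596). For Epcam and Krt8 it sets well-counted liver values against marrow values of a few counts. It was -0.42 for Krt7 (95% interval -3.80 to 2.95, limma-voom adjusted p = 0.932), for which both tissues had more counts with NDEA. Over all 11261 genes the median difference was 0.32, so that 7 of 9 estimates above 0 compare with 62.4% of all genes. Without the 2 marrow NDEA libraries with the fewest genes that median was 0.14. Krt18 had 0 counts in every marrow library, and Spp1 had 9 counts in liver. Their estimates lean on the prior of 0.5 counts, so the 7 of 9 is not read as a result. A liver-specific effect of NDEA on a member was not shown.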

How the data were processed

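Poly(A) RNA of 16 libraries was sequenced from the 3' end (QuantSeq FWD), per the labels' protocols. The authors deposited reads per gene; STAR and DESeq2 are named in the submitters' processing notes without a version. Counting tool, genome build and annotation: not given in the sources used here. Of the deposited gene records 12 were broken over 2 lines and 2127 had a description spread over several cells. Their rejoined values were whole raw counts, and the group totals in 16313 records equalled the sums in all. Because the file as it stands puts stray text under the count columns, these deposited columns were recorded as other than plain counts and the planned order was kept: limma-voom was the main test and the quasi-likelihood count test was not run.

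Each tissue was filtered, scaled by trimmed means of M values (trims 0.3 and 0.05) and fitted alone; the tissue difference and the untreated tissues were fitted on all 16 libraries. Log2 values used a prior of 0.5 counts. R 4.3.3 and limma 3.58.1 were used, and the scripts were tested on simulated data. P-values measure the spread between the libraries of a group. Promoters came from RefSeq (GRCr8), matched by symbol.

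The 10 members and 19 other gene lists were chosen with earlier results of these data known. Of 274 list entries 265 were matched, 4 of them by synonym. Named genes were the members, up to 4 called genes of each other list by p, and the 3 genes most like a called member. Where fewer than 2 genes of a list were called, the 2 with the lowest p were named. Genes most like Sox9 and Epcam, and Ggt1, Ncam1, Gata1 and Col1a2, were added after their values were seen. Alternatives were another scaling, filter, limma method, a replicate block and each library left out. Results that need items withheld for evaluation are not reported here.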

Additional observations from a re-analysis of the deposited data

Results flagged for a closer look

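Of 31 groups of 4 libraries examined for a library far from the other 3, 2 were marked, where chance alone would mark about 1 in 20. Krt8 in marrow NDEA 4 stood at 7.91 CPM (40 counts), where the other 3 NDEA marrow libraries stood between 0 and 1.01 CPM. Sox9 in marrow NDEA 1 stood at 3.01 CPM, where the other 3 lay between 5.2 and 5.54 CPM.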

How the results depend on the processing

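In liver the number of members called higher was 1; it was 2 with the replicate block (Krt8 and Epcam, the latter at an adjusted p of 0.0471), 0 with no filter, 0 with limma-trend, 0 in a fit of all 16 libraries, and from 0 to 1 with 1 library left out. Same-numbered libraries did not deviate together (correlations from -0.015 to 0.062), and the numbers were not taken as pairs. These correlations are between different groups, so they cannot settle whether liver and marrow of one number share a rat. Genes called in liver numbered 639, and 857 with the replicate block. Genes called in marrow numbered 0, and 251 with the replicate block, 2 with no filter, 69 in a fit of all 16 libraries and from 0 to 318 with 1 library left out, the 318 without control 3. Genes called for the tissue difference numbered 257, from 102 (without liver control 4) to 509 (without marrow control 3), 163 without liver control 3, and 88 without the 2 marrow NDEA libraries with the fewest genes, an alternative chosen after seeing the data. Some members that were not called turned sign: in marrow Cd24 (-0.033 without those 2 libraries), Sox9 (-0.78 with the block; from -0.95 to 2.07 with 1 library left out) and Spp1 (from -0.062 to 0.42); for the tissue difference Krt7 (0.018 without those 2 libraries; from -1.11 to 0.74 with 1 left out); and between untreated tissues Krt7 (from -0.96 to 0.21) and Sox9 (from -2.64 to 0.53). The cause was not tested. Scaling by library totals moved the median liver gene from 0.01 to 0.12 and the calls from 277 higher and 362 lower to 390 and 239; Krt8 was then at 0.61, still called. In fits with 1 library left out a gene had to reach the minimum in 3 libraries. The count-based quasi-likelihood test was not run. Counts of Krt7, Cldn4 and Spp1 in liver and of Krt8, Epcam and Cldn4 in marrow were too low at this depth to pass the filter.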
